A study of Rattus norvegicus with 16 samples.

Results

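Igj and 6 other genes used to mark plasma cells, Xbp1, Prdm1, Irf4, Mzb1, Tnfrsf17 and Sdc1, were followed through whole blood RNA of 16 rats. These 7 genes were taken by symbol from the 18031 genes listed for every library, each had 1 entry, and all 7 passed the filter on low counts. The animals were adult male Sprague-Dawley rats from Charles River, 85 to 90 days old. All 16 were saline controls that had received 4 injections, without amphetamine, and their blood was drawn from the heart 3 h after the last one. Globin mRNA was depleted, polyadenylated RNA was sequenced as stranded paired ends, and each library, numbered here as its control, held 21466776 to 31189549 estimated counts. Igj was chosen by a measured difference between libraries that carry different codes in their file names, and the other 6 as known plasma cell genes, so the values of Igj by code are given below as a description. Per the study's methods the control rats belonged to repeats of 1 experiment run on different dates. The labels used here do not give the date of a rat, so differences between dates could not be separated from differences between rats.

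Plasma cells are the antibody-secreting end state of B cells. Irf4 and Prdm1 are transcription factors that switch a B cell to this state, and Xbp1 then enlarges the endoplasmic reticulum (ER) so that it can fold and export antibody. Igj is the joining chain that links IgM and IgA into polymers, Mzb1 is an ER protein that helps to assemble IgM, Tnfrsf17 (BCMA) is a survival receptor and Sdc1 (syndecan-1, CD138) is a surface proteoglycan. Circulating plasma cells and plasmablasts are rare in blood, and several of these genes are also used by other cells: Irf4 by B cells, Prdm1 by T cells, Xbp1 by secretory and myeloid cells, and Sdc1 by epithelium and hepatocytes. In whole blood, fewer cells of a type and less RNA per cell cannot be told apart.

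Levels are normalised read counts, the estimated counts divided by a size factor for each library, and correlations were taken on log2(normalised count + 1). Igj had a mean of 452 ± 218 normalised counts (SD, n = 16). It was lowest in control 8 at 206, had a median of 393 and was highest in control 6 at 935, a 4.53-fold range. Mzb1 averaged 106 ± 51.7 (SD, n = 16) and ran from 42.8 in control 8 through a median of 102 to 218 in control 12. Controls 6 and 12 were thus the 2 highest and control 8 the lowest for both genes.

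Irf4 averaged 278 ± 87.2 normalised counts (SD, n = 16), with 141 in control 8, a median of 259.6 and 497 in control 6. Tnfrsf17 was near the limit of detection: its counts ran from 0 in control 9 to 41 in control 12, and 4 libraries had at least 10 of them. Its normalised level had a median of 7.12 and a maximum of 30.2, at least 10.0-fold above the floor of 3 counts in control 9. Irf4 therefore shared its lowest and highest libraries with Igj, and Tnfrsf17 shared its highest library with Mzb1.

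Xbp1 was ordered differently. It averaged 2555 ± 2295 normalised counts (SD, n = 16) and ran from 619.8 in control 4 through a median of 1608 to 8607 in control 8, a 13.9-fold range. The library with the most Xbp1 was the one with the least Igj, Mzb1 and Irf4. Prdm1 was the steadiest, at 143 ± 42.0 normalised counts (SD, n = 16), from 77.5 in control 16 through a median of 124 to 230.2 in control 14. Sdc1 had a median of 42.1 normalised counts with an SD of 66.8 (n = 16), and ran from 12.3 in control 3 to 277 in control 8.

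The coefficient of variation was 48.2% for Igj, 48.6% for Mzb1, 31.3% for Irf4, 29.3% for Prdm1, 81.1% for Tnfrsf17, 89.8% for Xbp1 and 111% for Sdc1, against a median of 29.8% over the 12952 genes that passed the filter. Counting error alone accounts for 4.59% for Igj, 9.49% for Mzb1 and 2.05% for Xbp1, but for 32.5% for Tnfrsf17. The spread of Igj, Mzb1 and Xbp1 was thus far above counting error.

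**Figure D1:**
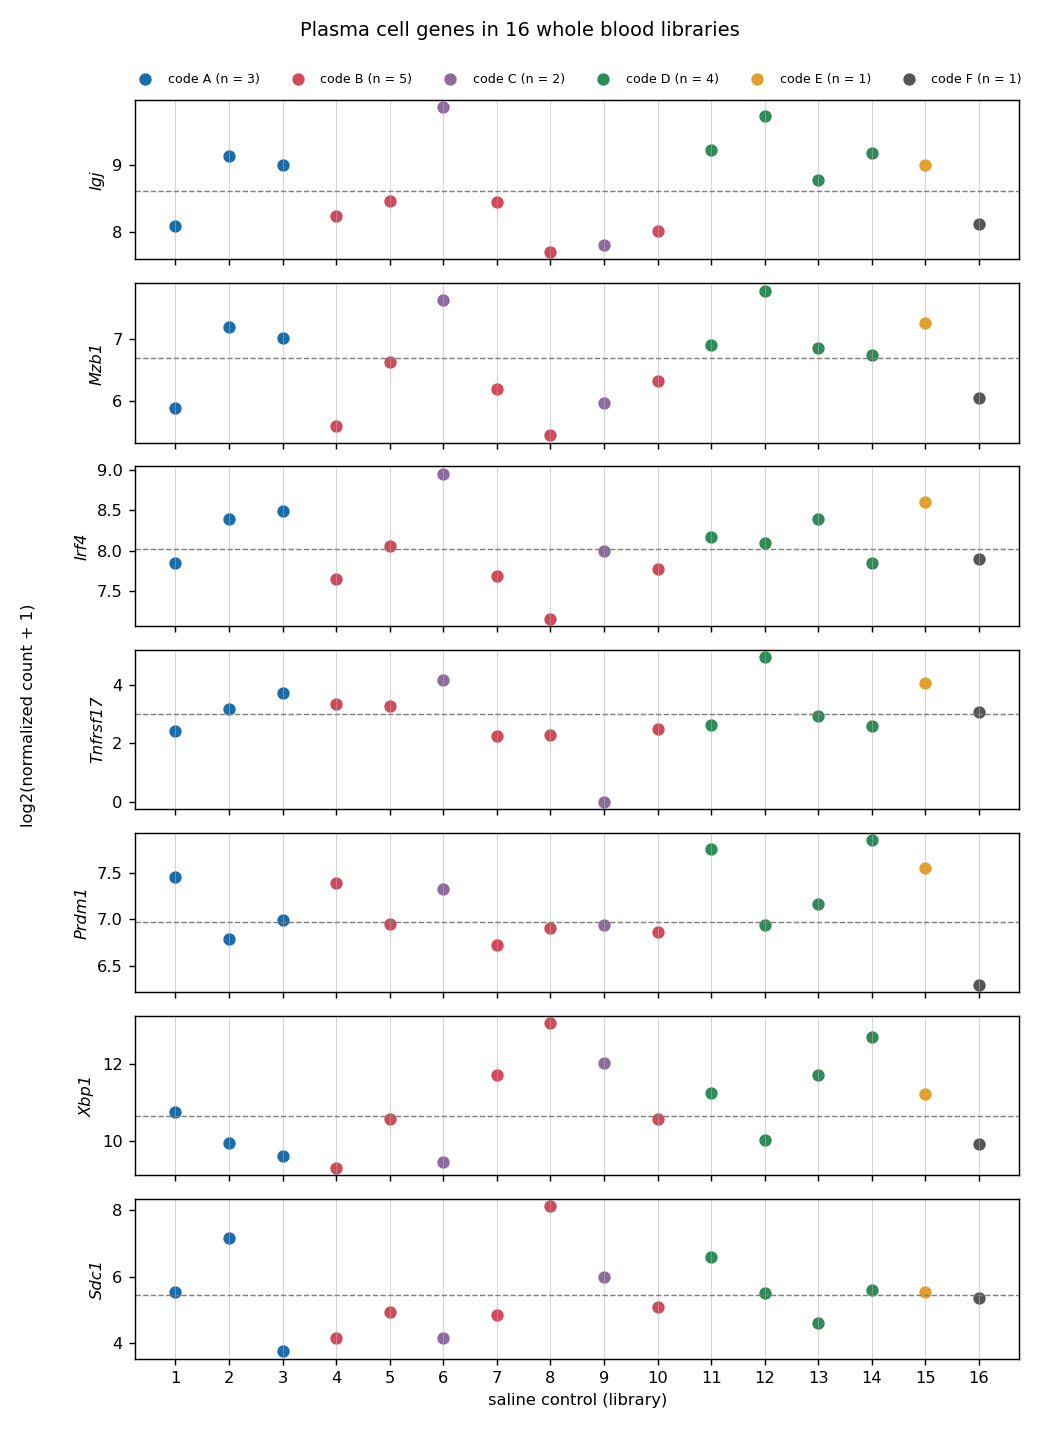
Log2(normalised count + 1) of the 7 genes (vertical axes, 1 panel a gene) in the 16 saline controls (horizontal axis); each point is 1 library, colours give the code in its file name, and the dashed line is the median of the gene. Igj and Mzb1 are highest in controls 6 and 12 and lowest in control 8, where Xbp1 and Sdc1 are highest.

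The question was whether Igj moves with the other plasma cell genes. It did so with Mzb1 most closely. Pearson's r of Igj and Mzb1 was 0.926 over 16 libraries (Spearman's rho 0.882), and Mzb1 ranked 1 among 12951 genes by r. The permutation p of 1e-05 is the smallest that 100000 resamples can give. Such a p cannot go below an adjusted 0.13 for a single gene among 12951, and the Benjamini-Hochberg adjusted p of Mzb1 was 0.13. With 10000000 resamples, added after seeing the data, p was 1.2e-06 and the adjusted p 0.0155. A fit of the counts of each gene on the Igj level with edgeR's quasi-likelihood test gave a slope of 0.985 ± 0.114 (SE) log2 units of Mzb1 per log2 unit of Igj, with an adjusted p of 0.0017. With the file code as a further term in that fit the slope was 0.921 ± 0.172 (SE) and the adjusted p 0.17. Igj was chosen for a difference between codes, which the tests over 16 libraries include, so their p-values are not independent of that choice.

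Started from Mzb1 in place of Igj, the same permutation test called 13 genes. Igj had the highest r of these, with an adjusted p of 0.0432 that other called genes shared. The pair and its r are the same as above, so this is no separate evidence. The ratio of Mzb1 to Igj in a library averaged 0.237 ± 0.0426 (SD, n = 16) and ran from 0.158 in control 4 to 0.309 in control 10. The 2 genes each varied more than 4-fold while this ratio varied 1.96-fold. On the log2 scale the SD of the ratio was 0.27, against 0.67 for Igj, 0.71 for Mzb1 and 0.18 from counting error alone.

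Irf4 had an r of 0.732 with Igj (rho 0.706, permutation p = 0.001, adjusted p = 0.27), the 49th highest of all genes. Tnfrsf17 had an r of 0.693 (rho 0.679, permutation p = 0.0018, adjusted p = 0.31), ranked 93. These ranks moved with single libraries: Irf4 ranked 164 without control 6 and 11 without control 12, and Tnfrsf17 ranked 221 without control 12 and 60 without control 8, while Mzb1 ranked 1 or 2 throughout. Neither Irf4 nor Tnfrsf17 passed the adjusted threshold. Prdm1 had an r of 0.376 (rho 0.438, permutation p = 0.15, adjusted p = 0.58), Sdc1 of -0.228 (rho -0.106, permutation p = 0.40, adjusted p = 0.73) and Xbp1 of -0.335 (rho -0.288, permutation p = 0.20, adjusted p = 0.61). The sign for Sdc1 rested on control 8: without it r was 0.0248.

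Over all 12951 genes, the permutation test with 100000 resamples called 0% at an adjusted p under 0.05, by Pearson's r or by Spearman's rho, and 0 of the 6 plasma cell genes. At an unadjusted p under 0.05 it called 762 genes with a positive r (5.88%) and 522 with a negative r, 9.91% together, and 3 of the 6 plasma cell genes. The 10000000 resamples were run for the 60 genes with the smallest p, and all others kept their first p. With them 2 genes passed (0.0154%), Mzb1 and ENSRNOG00000049909, which has no symbol here. The edgeR fit called 3 (0.0232%), these and Hnrnpa3, which encodes an RNA-binding protein. With the file code as a term it called 0, and 1810 genes had an unadjusted p under 0.05.

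**Figure D2:**
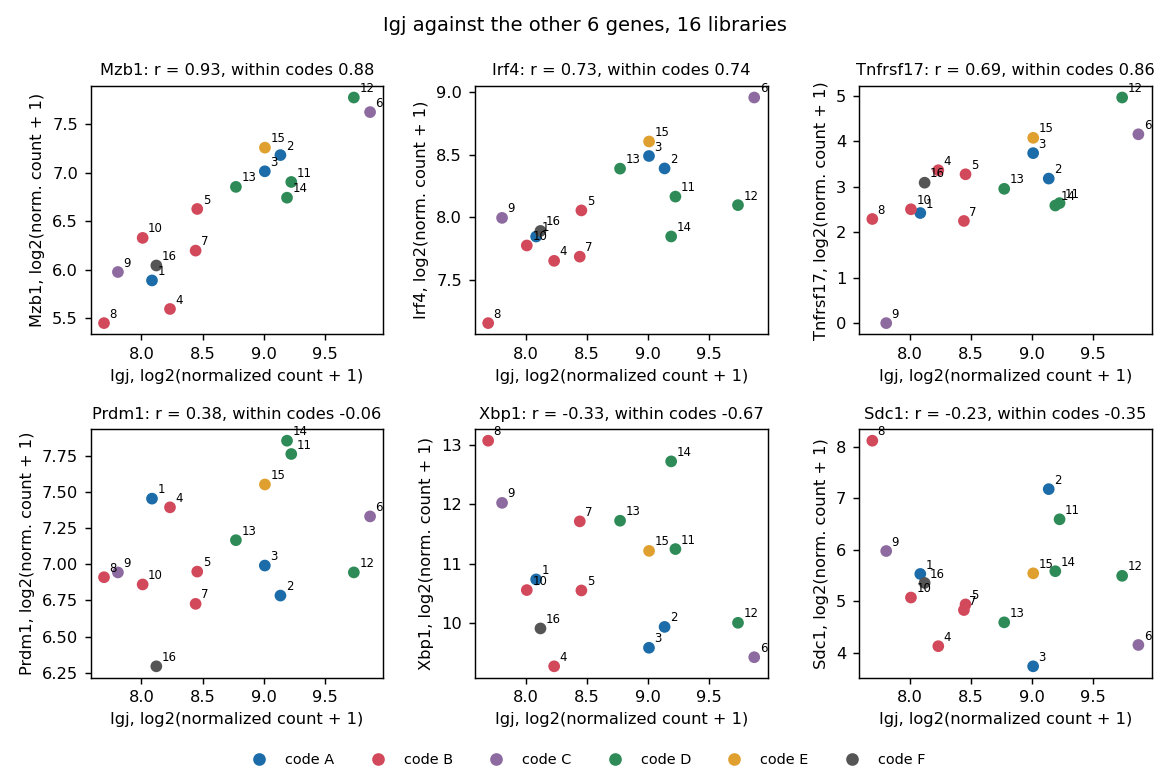
Each of the other 6 genes (vertical axes) against Igj (horizontal axes), both as log2(normalised count + 1), in 16 libraries numbered by control and coloured by file code. Mzb1 follows Igj most closely (r = 0.926), Irf4 and Tnfrsf17 follow it more loosely, and Prdm1, Xbp1 and Sdc1 do not line up with it.

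The codes in the file names, written here A to F, grouped the libraries into 3 (A), 5 (B), 2 (C), 4 (D), 1 (E) and 1 (F). The sources used here do not say what the codes stand for. In code B Igj ran from 206 to 350.4 normalised counts and in code D from 436 to 852.5, without overlap. This is the difference for which Igj was chosen, 1.09 ± 0.25 (SE) on the log2 scale, and it is given with no test; 2.3% of genes were called between these codes in the edgeR fit. Mzb1 did not overlap between them either, with 42.8 to 97.8 in B and 106 to 218 in D, a difference of 1.04 ± 0.34 (SE). Of all 12952 genes 0.641% were higher in every library of D than in every library of B, and 5.96% were without overlap in either direction. Irf4 differed by 0.46 ± 0.21 (SE), Prdm1 by 0.52 ± 0.24, Tnfrsf17 by 0.95 ± 0.61, Xbp1 by 0.15 ± 0.69 and Sdc1 by -0.50 ± 0.88 on the same scale, and for these 5 genes the libraries of B and D overlapped.

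Scaled by total counts instead, the median log2 difference of all genes between D and B was 0.53 and that of Igj was 1.59, so Igj stood about as far above the median of all genes as before, when that median was 0.04. The sign of Sdc1 turned under this scaling, to 0.09.

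Code A lay between the others for Igj, with 270.9, 562 and 514 normalised counts in controls 1, 2 and 3. It overlapped both B and D. Against A, the edgeR fit gave Igj -0.63 ± 0.27 (SE) log2 units in B and 0.46 ± 0.29 in D, again with no test since the levels in B and D chose it. Mzb1 was at -0.71 ± 0.36 in B (adjusted p = 0.43) and 0.34 ± 0.38 in D (adjusted p = 0.94). Of the other 6 genes 0 were called in either comparison, and so were 0% of all 12952 genes, where 13.5% and 5.41% had an unadjusted p under 0.05. Among the other 6 genes this held for Irf4 in B, at -0.59 ± 0.23 log2 units (adjusted p = 0.27).

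Because Igj was chosen for a difference between codes, the correlations were repeated after the mean of each code was removed, in the 14 libraries of codes with at least 2. Mzb1 had an r of 0.884 within codes (exact permutation p = 0.0053), Tnfrsf17 of 0.860 (exact permutation p = 0.022) and Irf4 of 0.737 (exact permutation p = 0.058). Xbp1 had an r of -0.673 (exact permutation p = 0.025), Sdc1 of -0.347 (exact permutation p = 0.30) and Prdm1 of -0.0632 (exact permutation p = 0.86). None of the 6 passed after adjustment over all genes, with adjusted p-values of 0.27 to 0.96, nor did any other gene (0%). The smallest p that this exact permutation test can give is 2.9e-05, so a single gene could not pass that adjustment alone. At an unadjusted p under 0.05 were 2171 genes (16.8%) and 3 of the 6. The positive r of Mzb1, Tnfrsf17 and Irf4 and the negative r of Xbp1 were thus present within codes as well as over all libraries. Their size within codes leaned on code C. Leaving out control 6 takes this code out, and r was then 0.837 for Mzb1, 0.662 for Tnfrsf17 and 0.538 for Irf4. Their ranks by r among all genes went from 7, 13 and 122 to 111, 850 and 1757. Xbp1 had an r of -0.562 there.

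**Figure D3:**
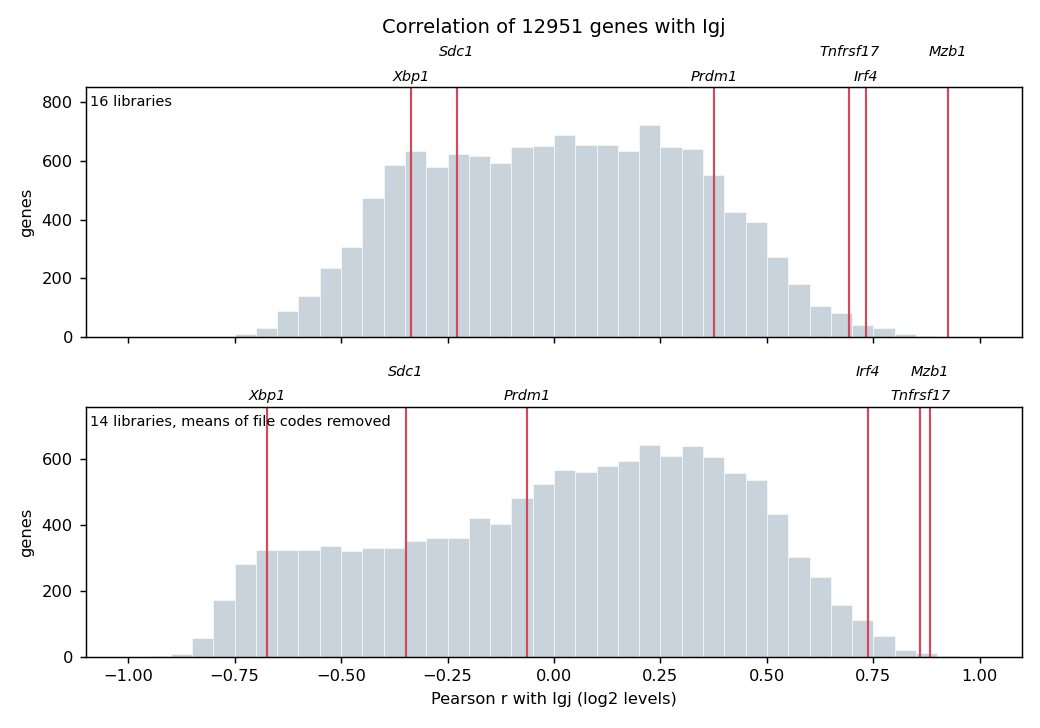
Number of genes (vertical axis) by Pearson's r with Igj (horizontal axis, bins of 0.05) over 16 libraries (upper panel) and within file codes in 14 libraries (lower panel), for 12951 genes. Red lines mark the 6 plasma cell genes: Mzb1, Irf4 and Tnfrsf17 stand at the right edge in both panels, while Xbp1 and Sdc1 lie left of 0.

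With controls 6 and 12 left out, whose Igj was farthest from its median, r was 0.881 for Mzb1, 0.709 for Irf4 and 0.531 for Tnfrsf17. Control 12 stood apart in genes of early lymphoid cells, with 4189 normalised counts of Rag1, the recombinase of antigen receptor genes, against 0 to 23 in the other libraries. It also had the highest Mzb1 and Tnfrsf17. Without it r with Igj was 0.909 for Mzb1, 0.798 for Irf4 and 0.615 for Tnfrsf17. Control 2, with 330250 normalised counts of the liver gene Alb, could be left out with r of 0.923, 0.722 and 0.696. The total count and the globin share of a library, 2.89% to 15.5% of its counts, had r of 0.404 and 0.393 with Igj (rho 0.388 and 0.438, permutation p = 0.12 and 0.13, within codes 0.524 and 0.494, adjusted p = 0.49 for both over 14 such relations). With the 2 most distant libraries of each measure left out these r were 0.330 and 0.152.

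Immunoglobulin genes lay on the side of Igj. Of 9 entries named as heavy or light chains 8 passed the filter, 8 of 8 had a positive r with Igj and their median r was 0.655, against 0.0183 over all genes, of which 6735 of 12951 were positive. By the permutation test 0 of 8 passed the adjusted threshold. IGH-1A, a heavy chain entry, had an r of 0.784 with Igj (rho 0.794, permutation p = 0.00032, adjusted p = 0.20, within codes 0.849). Igkc, the kappa light chain constant region, had 0.772 (rho 0.803, permutation p = 0.00053, adjusted p = 0.24, within codes 0.769). IGH-6, the mu heavy chain constant region, had 0.736 (rho 0.691, permutation p = 0.0012, adjusted p = 0.27, within codes 0.736). Without controls 6 and 12 their r was 0.890, 0.704 and 0.656.

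IGH-1A ranged most widely of the immunoglobulin entries above a mean of 50 normalised counts, from 48.0 in control 9 to 2324 in control 12. IGH-6 ran from 6231 to 23025 and Igkc from 3387 to 13808, both lowest in control 8. Reads of immunoglobulin genes can be divided among similar chains by the counting, so values of single chains are uncertain.

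B-cell genes leaned the same way. Of 19 tested, 18 had a positive r with Igj, with a median of 0.536, and 0 passed the adjusted threshold. The closest were Spib, a transcription factor of B cells and plasmacytoid dendritic cells (r = 0.713, rho 0.682, permutation p = 0.0018, adjusted p = 0.31, within codes 0.675), and Blnk, an adaptor of the B-cell receptor (r = 0.691, rho 0.691, permutation p = 0.0032, adjusted p = 0.33, within codes 0.670). Among 18 further genes raised in plasma cells 13 had a positive r and the median was 0.260. Their closest were Pou2af1, a B-cell coactivator (r = 0.731, rho 0.647, permutation p = 0.0013, adjusted p = 0.27), and Txndc5, an ER disulfide isomerase (r = 0.704, rho 0.756, permutation p = 0.0032, adjusted p = 0.33, but 0.45 within codes).

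The 30 genes of ER folding and secretion did not follow Igj: 8 had a positive r and the median was -0.143. The most negative was Calr, the chaperone calreticulin, at -0.594 (rho -0.6, permutation p = 0.016, adjusted p = 0.44, within codes -0.220). Monocyte and neutrophil genes that the study had selected had medians of -0.141 (7 genes) and -0.238 (3 genes). T-cell genes from the same source had a median of 0.220 (5 genes). Since the study chose these 3 lists with blood of this kind in view, their directions are not independent evidence. Erythroid genes had a median of -0.383 over all libraries and 0.316 within codes, so their sign depended on the codes. Medians of the remaining lists were 0.294 for cell division, 0.0910 for plasmacytoid dendritic cells, -0.146 for liver, 0.423 for early lymphoid cells, 0.0796 for epithelium, 0.118 for fat and 0.0639 for heart. In each of these lists 0 genes passed the adjusted threshold.

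By rank of r among genes with a symbol and a mean of at least 50 normalised counts, the 10 genes most like Igj over the 16 libraries were Mzb1, Hnrnpa3 (0.864), Eif3a (0.850), Ncl (0.841), Dek (0.831), Rbm6 (0.805), RT1-DOb (0.797), Cxxc5 (0.790), IGH-1A (0.784) and Opa3 (0.774). Ncl encodes nucleolin, Eif3a a translation initiation subunit, Dek a chromatin protein and RT1-DOb a chain of an MHC class II chaperone of B cells. Their adjusted p-values were 0.13 to 0.24 in the permutation test, rho was 0.697 to 0.882 and r within codes 0.658 to 0.929. Among the most opposed were Dazap2 (-0.764), Csnk2b (-0.741), Lin37 (-0.738) and Gm166 (-0.734), with rho of -0.782 to -0.662 and adjusted p-values of 0.26 to 0.27.

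Mzb1 and Irf4 were then compared with all genes in the same way. Mzb1 had 13 genes with a positive r at an adjusted p under 0.05 in the permutation test (0.1%) and 0 with a negative one. They included Igj, Igkc (r = 0.868, rho 0.938, adjusted p = 0.0432, within codes 0.923) and RT1-DOb (r = 0.870, rho 0.844, adjusted p = 0.0432, within codes 0.808). Igkc was also called within codes (adjusted p = 0.04997, exact permutation). With controls 8 and 12 left out, whose Mzb1 was farthest from its median, r was 0.787 for Igkc and 0.845 for RT1-DOb.

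Irf4 had 19 genes with a positive r (0.147%) and 1 with a negative one (0.00772%). The positive ones included 3 of the 19 B-cell genes: Spib (r = 0.926, adjusted p = 0.0216), Blnk (0.880, adjusted p = 0.0216) and Blk, a B-cell kinase (0.872, adjusted p = 0.0259). IGH-6 (0.899) and Pou2af1 (0.897) were called too, both with an adjusted p of 0.0216. Spearman's rho of these 5 genes with Irf4 was 0.862 to 0.944 and r within codes 0.835 to 0.902, but none was called within codes (adjusted p = 0.32). Without controls 6 and 8, the farthest for Irf4, their r was 0.751 to 0.854. Irf4 and Mzb1 had an r of 0.820 with each other (rho 0.856, permutation p = 0.00013, adjusted p = 0.056 over all genes, within codes 0.812). Among the 15 pairs without Igj this was the highest r. Prdm1, Tnfrsf17 and Sdc1 had 0 genes called in either direction.

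Xbp1 was looked at more closely after its negative r with Igj had been seen. That r was not called. It was -0.335 over 16 libraries (permutation p = 0.20) and -0.673 within codes (exact permutation p = 0.025, adjusted p = 0.27). Without each replicate in turn it ran from -0.478 to -0.172 over libraries and from -0.751 to -0.562 within codes. Without controls 2, 8 and 12 it was -0.054 over libraries and -0.608 within codes. Xbp1 was correlated with far more genes than the others: 1671 with a positive r (12.9%) and 1259 with a negative one (9.72%) at an adjusted p under 0.05. Scaled by total counts the split was 945 to 32. Within codes 1266 (9.78%) and 880 (6.79%) were called. Of the 30 genes of ER folding and secretion 12 were called with a positive r and 0 with a negative one, and 28 of 30 were positive, with a median r of 0.584 against -0.0631 over all genes.

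Hspa5 (BiP), the main ER chaperone, had an r of 0.921 with Xbp1 (rho 0.915, permutation p = 1e-05, the smallest possible, within codes 0.927). Ssr3, a subunit of the translocon-associated complex, had 0.917 (rho 0.912, within codes 0.930). Both kept most of this without controls 8 and 14, the farthest for Xbp1, at 0.859 and 0.885. MANF, secreted under ER stress (r = 0.833), Dnajb11, a co-chaperone of Hspa5 (0.803), Sec61a1, the channel of the ER membrane (0.804), and Atf6, a sensor of unfolded protein (0.805), were called as well, with rho of 0.715 or more, and these 6 were also called within codes. Under total count scaling 4 of these 30 were called, Hspa5, Ssr3, MANF and Atf6, and without controls 8 and 14 also 4, Hspa5, Ssr3, MANF and Dnajb11.

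Sequences of the Xbp1 and ER gene promoters are shown because 12 of the 30 ER genes were called with Xbp1. They are from RefSeq on the GRCr8 build, a later build than that of the counts, and cover the 250 bases before the annotated start. Of the 7 plasma cell genes 6 had a promoter in the table, Igj under the symbol Jchain, and Mzb1 had none. The Xbp1 promoter, chr14:84604373-84604622 on the + strand, holds 1 match to the ER stress element, CCAAT and CCACG with 9 free bases between them, whose fixed bases are in capitals:
Xbp1: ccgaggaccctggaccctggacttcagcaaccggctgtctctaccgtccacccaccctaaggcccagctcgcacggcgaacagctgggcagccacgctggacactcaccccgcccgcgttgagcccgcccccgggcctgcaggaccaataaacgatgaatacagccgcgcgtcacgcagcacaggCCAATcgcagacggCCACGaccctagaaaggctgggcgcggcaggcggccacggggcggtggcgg
The match lies 65 to 47 bases before the start. Searched on both strands, this motif was found in 21 of 27457 promoters (0.0765%), in 1 of the 6 plasma cell genes and in 6 of the 24 ER genes that have a promoter in the table. Their matches, read in the direction of the motif with its fixed bases in capitals, are printed to show how the spacer differs:
Hspa5: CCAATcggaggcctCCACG
Hsp90b1, first match: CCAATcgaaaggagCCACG
Hsp90b1, second match: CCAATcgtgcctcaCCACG
Calr: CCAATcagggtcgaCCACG
Canx: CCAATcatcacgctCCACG
Dnajc3: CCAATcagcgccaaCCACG
Ero1lb: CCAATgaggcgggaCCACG
Of these 6 genes, Hspa5 and Hsp90b1 were among the 12 called with Xbp1, and Calr (r = 0.123), Canx (0.477), Dnajc3 (0.605) and Ero1lb (0.375) were not.

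The Igj promoter, chr14:19822726-19822975 on the + strand, is shown for the gene against which all others were set. It holds no match to the ER stress element, the octamer ATGCAAAT, the repeat bound by IRF factors (GAAA, 2 free bases and GAAA) or the unfolded protein response element TGACGTGG on either strand, so no base is in capitals:
Igj: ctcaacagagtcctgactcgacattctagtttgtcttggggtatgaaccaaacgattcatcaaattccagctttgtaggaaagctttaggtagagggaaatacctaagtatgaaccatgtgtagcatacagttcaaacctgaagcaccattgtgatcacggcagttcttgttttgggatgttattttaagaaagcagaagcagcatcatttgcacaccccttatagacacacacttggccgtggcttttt
The octamer was found in 1.5% of all promoters, the IRF repeat in 3.29% and the unfolded protein response element in 0.55%. Among the plasma cell genes the IRF repeat was found in Tnfrsf17, as GAAAcaGAAA, and the other motifs in none but the match of Xbp1 given above.

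Some genes of myeloid cells were also close to Xbp1. Ccr1, a chemokine receptor of monocytes and granulocytes, had an r of 0.950 with Xbp1 (rho 0.941, within codes 0.955), and Nos2, the inducible nitric oxide synthase, had 0.925 (rho 0.918, within codes 0.938). Camp, a granule peptide of neutrophils, had 0.923 (rho 0.879, within codes 0.954) and Elane, neutrophil elastase, 0.902 (rho 0.909, within codes 0.926). All 4 were called by the permutation test over all libraries and within codes, and again without controls 8 and 14, where r was 0.950, 0.898, 0.867 and 0.902. In all, 3 of 7 monocyte and 2 of 3 neutrophil genes were called with Xbp1, against 12.9% of all genes. The median r with Xbp1 was 0.427 for the 7 monocyte genes, 0.902 for the 3 neutrophil genes and 0.584 for the ER genes. Mpo, the third neutrophil gene, had an r of -0.394 (within codes -0.621). The monocyte and neutrophil lists are the ones that the study had selected.

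Control 8, with the highest Xbp1, also had the highest summed level of the monocyte genes (34939 normalised counts, median over libraries 9062) and of the 6 listed neutrophil genes (6577, median 584). Control 14, second in Xbp1 at 6765, was second in both, at 31661 and 4861. Of the neutrophil list, Camp and Elane were present in every library, while Prtn3 and Ctsg were at or near 0 in most. The part of myeloid cells in the level of Xbp1 was not tested.

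B-cell genes lay on the other side of Xbp1. Of 19 tested, 6 were called with a negative r, among them Fcer2 (r = -0.748) and Cd22 (-0.677), and 1, Bcl6, with a positive one (0.807). Bcl6, a repressor of B-cell differentiation, is also expressed by granulocytes. For Fcer2, Cd22 and Bcl6 rho was -0.671, -0.665 and 0.747, and of these 3 all but Cd22 were also called within codes. Without control 8, and under total count scaling, 0 B-cell genes were called with a negative r. Of the 8 immunoglobulin genes 2 were called with a negative r, Ighg3 (-0.761) and IGH-6 (-0.647), and 0 with a positive one. Among the further plasma cell genes Creld2, an ER chaperone, was called with a positive r (0.787) and Cd38 (-0.755) and Cd27 (-0.693), both receptors also found on other lymphocytes, with a negative one. The r of each gene named here is over 16 libraries, with an adjusted p under 0.05 in the permutation test.

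The negative r with Xbp1 was not particular to B-cell genes. All 5 T-cell genes had one, with a median of -0.596, and Cd3e (r = -0.672, rho -0.582, adjusted p = 0.026) and Cd247 (r = -0.664, rho -0.674, adjusted p = 0.031), both chains of the T-cell receptor complex, were called. Within codes these 2 and Cd28 were called. Of the 6 early lymphoid genes all 6 had a negative r and 2 were called, Cd1d1 (-0.706) and Satb1 (-0.688), a chromatin organizer of lymphocytes. Without control 8, and under total count scaling, 0 genes of either list were called. T-cell genes were also at 0 calls without control 3 or control 4.

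Tnfrsf17 had an r of -0.586 with Xbp1 (rho -0.715, adjusted p = 0.059), and within codes -0.782 (adjusted p = 0.016, exact permutation). Without controls 8 and 14 it was -0.637. Mzb1 had -0.330 (adjusted p = 0.39), Irf4 -0.463 (adjusted p = 0.18), Prdm1 0.218 (adjusted p = 0.61) and Sdc1 0.542 (adjusted p = 0.097). Of the 6 plasma cell genes 0 were thus called with Xbp1 by Pearson's r over all libraries. By Spearman's rho over all libraries 1 was called, Tnfrsf17 (adjusted p = 0.0207), and within codes again Tnfrsf17 alone. Of all 12951 genes rho called 1500 with a positive and 748 with a negative sign. Within codes 9.78% and 6.79% were called, so 1 of 6 is about the share of all genes.

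**Figure D4:**
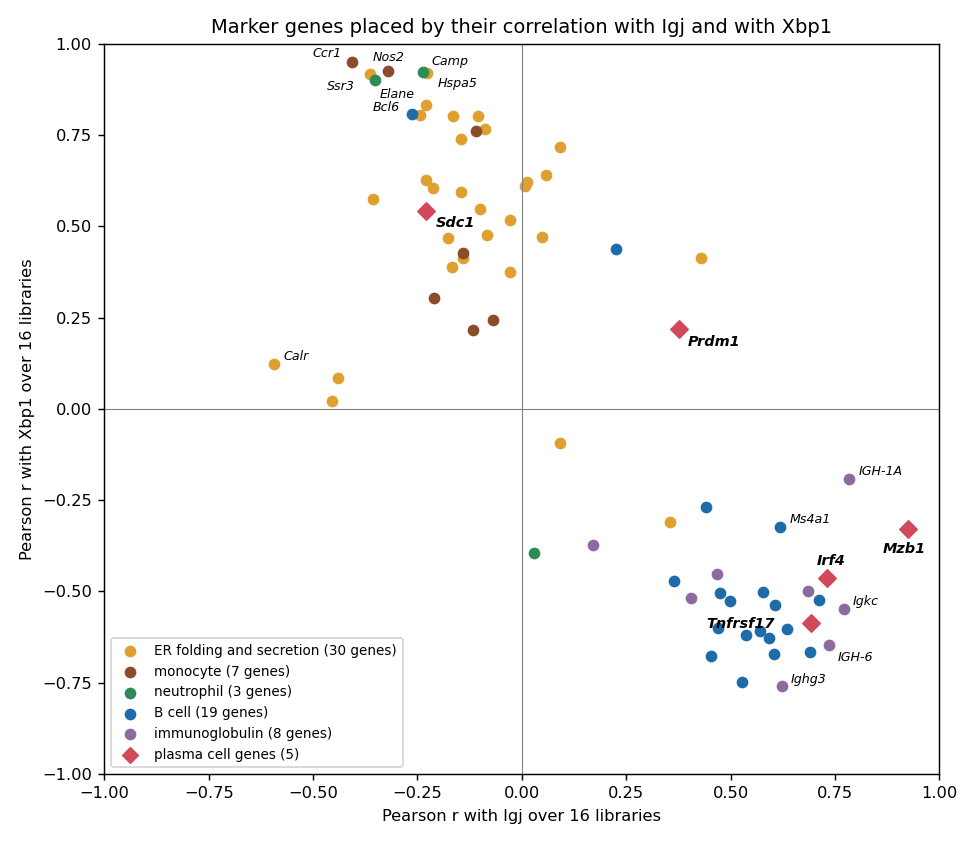
Marker genes placed by Pearson's r with Igj (horizontal axis) and with Xbp1 (vertical axis), both over the same 16 libraries; circles are genes of 5 lists and diamonds the plasma cell genes other than Igj and Xbp1. Immunoglobulin genes, most B-cell genes and Mzb1, Irf4 and Tnfrsf17 lie at the lower right. Most ER, monocyte and neutrophil genes lie at the upper left.

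Prdm1 was correlated with neither group. Its r within codes was -0.0632 with Igj, -0.402 with Mzb1 (exact permutation p = 0.19), -0.155 with Irf4 (exact permutation p = 0.60) and -0.00908 with Xbp1 (exact permutation p = 0.98). Its highest libraries were controls 14 and 11, at 230.2 and 216 normalised counts.

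Sdc1 was set apart by single libraries. Control 8 had 277 and control 2 had 144 normalised counts, and the other 14 had 12.3 to 95.6. These were the 2 libraries with the most RNA of the liver gene Alb, at 330250 normalised counts in control 2 and 11403 in control 8, against 4 to 3102 elsewhere. The 17 liver genes summed to 589560 in control 2 and 137020 in control 8, with a median over libraries of 18386. All 17 were highest in control 2 except Hp, which was highest in control 8 and had an r of 0.741 with Xbp1. Next in the liver sum were controls 14 and 15, at 78203 and 47797. These 2 also came next after control 8 in the summed neutrophil genes, at 4861 and 4039. Which cells gave the RNA of the liver sum was not tested. Of the 10 epithelial genes, Krt8 and Krt18 were also highest in controls 2 and 8, while Krt5, Cldn7 and Elf3 were at or near 0 throughout. Without control 8 the r of Sdc1 with Igj changed sign, as given above. Of the 30 ER genes 28 had a positive r with Sdc1, with a median of 0.537 (within codes 0.569). All 17 liver genes had a positive r with Sdc1, with a median of 0.548 (within codes 0.707). In both lists 0 genes were called. The part of liver or epithelial RNA in Sdc1 was not tested.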

How the data were processed

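Whole blood RNA of 16 saline control rats was analysed, 1 library an animal, so p-values measure the spread between these animals. Per the labels and the study's methods, reads from CASAVA 1.8.2 were trimmed and placed by Bowtie 0.12.9 on rat transcripts of build rn5, and RSEM 1.2.0 estimated the counts that the authors deposited. These deposited expected counts carry no normalization and were rounded here. The gene lists of the files differ, and the 18031 genes in all files were used.

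Normalised counts are counts divided by DESeq2 1.42.0 size factors; log2 levels use a pseudocount of 1. The filter was filterByExpr of edgeR 4.0.16 over the 12 libraries of codes A, B and D. Correlations with Igj were tested two-sided by permutation with 100000 resamples, and within codes over all 34560 arrangements (exact). Codes were compared with edgeR's quasi-likelihood test (TMM scaling, 1 fit). P-values were adjusted by Benjamini-Hochberg over every gene tested, at a threshold of 0.05. Those for the total count and the globin share were adjusted over 14 relations of the plasma cell genes with these measures. No other p is adjusted over the plasma cell genes alone. Spearman's rho, other scalings (TMM, total counts), DESeq2, limma 3.58.1 and left-out libraries served as alternatives. Libraries held 21466776 to 31189549 counts, and the floor of 3 counts covers counting error only. The code was tested on simulated data. R 4.3.3 and Python with numpy and scipy were used.

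The 7 genes and all gene lists were chosen with earlier results of these data known. Named besides them were the 10 highest and 5 lowest r with Igj among genes with a symbol and a mean of at least 50, and up to 4 genes a list; 1 gene of the 5 lowest is not reported here. Genes named with Xbp1, Mzb1 or Irf4 were chosen after their values were seen. Promoters are RefSeq (GRCr8).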

Additional observations from a re-analysis of the deposited data

Results flagged for a closer look

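Within the file codes of 4 or 5 libraries, 14 groups of values of the 7 genes were tested for a library far from the others of its code, and 4 stood out; chance gives about 1 in 20. Over all 12952 genes the same rule marked a library in 10.3% of genes in code B and 9.6% in code D. Sdc1 in control 8 was at 277 normalised counts, the highest of code B by a gap of 0.938 of the range. Prdm1 in control 4 was at 167, the highest of code B by a gap of 0.716 of the range. Mzb1 in control 12 was at 218 and Tnfrsf17 in the same library at 30.2, both the highest of code D, by gaps of 0.886 and 0.931 of the range. Control 12 is the library with the early lymphoid genes given above, and control 8 one of the libraries with the most Alb.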

How the results depend on the processing

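No paired analysis was possible because all 16 libraries form one group. Within codes 0 genes were called with Igj under every alternative run. With libraries left out the exact test has fewer arrangements, so its smallest p is larger and a count of 0 there shows little. Over all libraries the count of 0 became 5067 genes, 4 of the 6 plasma cell genes among them (Mzb1, Irf4, Tnfrsf17, Prdm1), under total count scaling, where the median r of all genes was 0.487. It was 2 and 1 with 10000000 resamples for 60 genes, and 3 and 1 in the edgeR fit on the Igj level. With the file code in that fit it was 0 and 0 (Mzb1 adjusted p = 0.17). Without each replicate in turn 0 to 7 genes and 0 to 1 plasma cell genes, Mzb1, were called. The r of Mzb1 stayed between 0.909 and 0.943 there. Between codes A and B DESeq2 called 566 genes and limma 7 where edgeR called 0, and without each replicate 0 to 506; between A and D DESeq2 called 14, and without each replicate 0 to 2 were called; 0 of the 7 genes were called in any of these fits but for the B to D comparison that chose Igj. Between B and D the count of 298 became 742 with DESeq2, 6 under total count scaling and 0.0155% to 5.44% of genes without each replicate, and the log2 difference of Igj became 1.59 under total count scaling.

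Signs turned for genes without a call. Prdm1 within codes had an r of 0.241 under total count scaling, where the median of all genes was 0.264, 0.238 without controls 2, 8 and 12, and -0.410 to 0.143 without each replicate. Total counts moved the median log2 difference of all genes to -0.50 for B against A and 0.53 for D against B. Sdc1 over all libraries ran from -0.339 to 0.0248. The log2 difference of Sdc1 was -0.010 (limma) and -0.25 (total counts) for B against A, 0.22 (limma) for D against A, and 0.23 (limma) and 0.085 (total counts) for D against B; without each replicate it ran from -1.33 to 1.37, -0.84 to 0.87 and -1.01 to 1.00. Prdm1 for B against A ran from -0.28 to 0.082 and Xbp1 for D against B from -0.43 to 0.96. The cause was not tested.

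For Xbp1 the 1671 positive calls became 945 under total count scaling, 1018 without controls 2, 8 and 12 and 1104 without controls 8 and 14. The 1259 negative calls became 32, 150 and 352 there and 748 by Spearman's rho. The 12 ER genes became 4, 7 and 4. Without each replicate these counts ran from 1197 to 1698, 314 to 1469 and 7 to 16, lowest without control 8. The 3 monocyte calls became 3, 3 and 2 under total counts, without controls 2, 8 and 12 and without controls 8 and 14. The 2 neutrophil calls stayed at 2 in each. Without each replicate the monocyte calls ran from 3 to 4 and the neutrophil calls stayed at 2. These settings for Xbp1, the 10000000 resamples and the edgeR fit were added after seeing the data. Tnfrsf17 failed the filter, and gave no value between codes, without replicate 4 or 12. Depth limits Tnfrsf17, which had under 10 counts in 12 of 16 libraries.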
